A study of Homo sapiens with 12 samples.

Results

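The 67 genes described here are protein-coding genes that were close to silent in RBE cells until Nutlin was added. They were chosen by measured values: at most 12 raw counts in all over the 6 libraries without Nutlin, and a mean of at least 1 CPM (a count divided by the library total and scaled to 1000000) over the 6 libraries with Nutlin. Symbols starting with LCE, HIST, KIF, COL or ABC were left out. The table held 20237 protein-coding entries among 55773 entries in all. Of the 6403 protein-coding genes with at most 12 counts without Nutlin, 73 (1.14%) reached 1 CPM with it, and 6 of these were left out by their symbols. The rise with Nutlin is therefore a description of how the genes were selected and carries no test.

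RBE is an established human cholangiocarcinoma line. Poly(A) RNA was sequenced from 12 libraries in 4 groups of 3. The vehicle group had DMSO in place of both agents. The vehicle_Nutlin group had DMSO in place of AG-120 and then 5 µM Nutlin for 72 hours. In both of these groups the DMSO in place of AG-120 was given for 22 days. The AG120 group was kept in 5 µM AG-120, an inhibitor of mutant IDH1, for 22 days and had DMSO in place of Nutlin. The AG120_Nutlin group received the same 22 days of AG-120 followed by 72 hours of 5 µM Nutlin. The labels do not say whether replicates are separate cultures, so p-values measure the spread between these libraries, which may be technical. All libraries came from 1 line.

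p53 is a transcription factor that is kept low by MDM2, a ubiquitin ligase that marks it for destruction. Nutlin occupies the p53-binding pocket of MDM2, so p53 accumulates and binds its sites in DNA. The best known targets halt the cell cycle, promote apoptosis or feed back on p53, and most of them are transcribed to some degree before p53 is activated. A p53 site is built from a pair of decamers, each with a core made of C, a pair of bases that are A or T, and G.

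Promoter sequences are shown first, because such decamers are what can be read from the genes themselves. RefSeq promoter windows (GRCh38.p14) of 300 bases, from 250 before to 50 after a transcription start, were found for 53 of the 67 genes, 3 of them under a current symbol (C1orf222, FAM65B and RGAG1). The 4 exact p53 half-sites of PDE4C, the single near-complete sites of BLNK and ANKRD65, and the paired cores of CLCA2 and DQX1 are given 5′ to 3′ on the gene's strand, upstream of the start only. Capitals mark exact half-sites in PDE4C, both decamers of the site in BLNK and ANKRD65, and both cores in CLCA2 and DQX1. The windows of CLCA2 and DQX1 held no exact half-site. Their closest pairs of decamers had 3 mismatches in CLCA2 and 2 in DQX1 and began elsewhere than the cores shown. The cores shown for these genes are therefore not complete p53 sites.
PDE4C, chr19:18224550-18224720, minus strand: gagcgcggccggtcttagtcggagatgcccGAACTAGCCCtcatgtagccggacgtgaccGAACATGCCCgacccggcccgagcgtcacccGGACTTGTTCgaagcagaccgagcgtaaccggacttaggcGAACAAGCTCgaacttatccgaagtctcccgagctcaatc
BLNK, chr10:96271570-96271628, minus strand: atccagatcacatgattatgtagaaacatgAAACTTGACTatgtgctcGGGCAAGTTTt
ANKRD65, chr1:1421462-1421526, minus strand: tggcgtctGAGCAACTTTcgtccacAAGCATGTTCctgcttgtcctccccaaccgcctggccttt
CLCA2, chr1:86423969-86424042, plus strand: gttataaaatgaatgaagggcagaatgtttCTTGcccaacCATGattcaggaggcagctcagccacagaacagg
DQX1, chr2:74526373-74526446, minus strand: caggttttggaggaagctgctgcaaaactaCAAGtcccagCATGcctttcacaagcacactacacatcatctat

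The paired cores were searched as C, 2 bases that are A or T, G, any 6 bases, and the same core again, which is the spacing inside a p53 site with no gap. The pattern reads the same on both strands, so 1 search covered both, and it overlaps the p53 half-site, whose centre is the same core. At least 1 window of 8 genes held it: CLCA2, DQX1, RGMA, RIMBP2, ANKRD65, ESRRB, GRM8 and CPB2. These were 15.1% of the 53 genes, beside 5.25% of 15842 protein-coding genes with a window and 5.46% of the 3698 that were equally silent without Nutlin but were not selected. An exact p53 half-site (3 purines, the core, 3 pyrimidines) stood in a window of 10 of the 53 genes (18.9%), beside 8.07% of all and 9.06% of the unselected silent genes. A pair of half-sites, up to 13 bases apart and with at most 1 mismatch in all, was found in 3 genes (5.66%), PDE4C, BLNK and ANKRD65, beside 0.903% of all and 1.16% of the unselected silent genes. Genes with several annotated starts had more windows to search, and PDE4C has 4. These matches describe letters in the windows and not sites at which p53 was measured.

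The promoters of the 67 genes were poor in CpG. The ratio of observed to expected CpG, which is low where methylated CpG has been lost over evolution, had a median of 0.394 over the 53 genes, beside 0.321 in unselected silent genes and 0.821 in the 9774 other genes of the expression test. It was under 0.6 in 35 of the 53 genes (66%), in 70.8% of the unselected silent genes and in 19.8% of the other tested genes. The plot of promoter CpG content shows the curve of the 67 genes beside that of silent genes and far from that of tested genes.

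**Figure D1:**
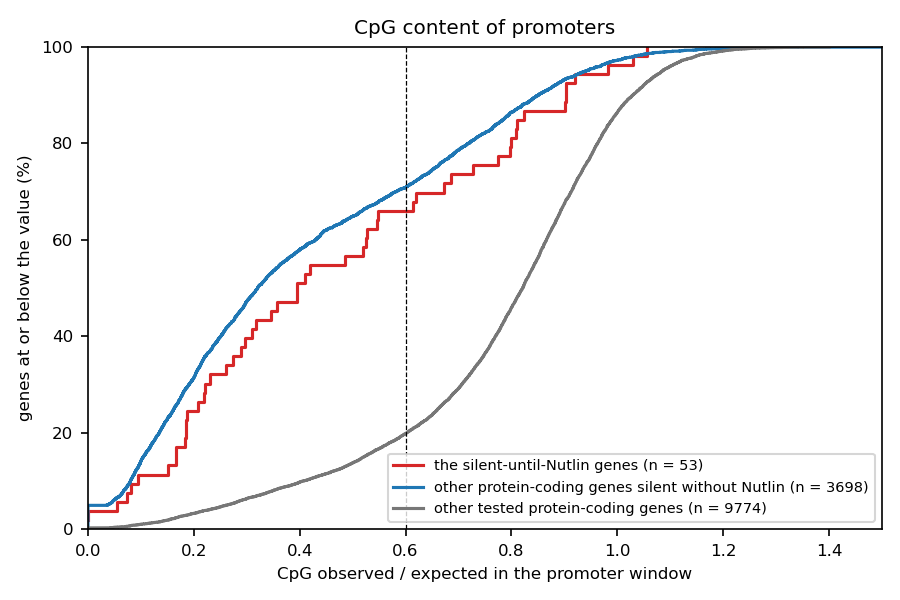
Cumulative share of genes (y axis, %) by the CpG observed to expected ratio of their promoter windows (x axis, median over a gene's starts), for 53 of the 67 genes, 3698 other silent protein-coding genes and 9774 other tested genes. The dashed line is at 0.6, below which 66% of those 53 genes, 70.8% of silent genes and 19.8% of tested genes lie.

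Library totals ran from 16840161 to 27499433 counts (median 19221201). CDKN1A, whose product p21 halts the cell cycle, was at 371 to 489 CPM in the libraries without Nutlin and at 7833 to 10396 CPM in those with it, and MDM2 was at 141 to 194 and 2105 to 3481 CPM. IDH1 was at 168 to 201 CPM without and 95.7 to 132 CPM with Nutlin. Of the 15 biliary markers on a list, 13 passed the filter of the test. Their summed level was 6270 to 8822 CPM without and 6919 to 9904 CPM with Nutlin. With Nutlin in vehicle cells 4 of the 13 were called higher and 6 lower (26.8% and 27.1% of all tested genes were): KRT19 went from 1463 to 2746 CPM, KRT7 from 1508 to 956 CPM and EPCAM from 48.1 to 17.2 CPM in the group means. In 2 vehicle_Nutlin libraries and 1 AG120 library many genes stood apart from the other replicates. Calls between the Nutlin groups are given with and without these libraries, and most other results only with them.

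Without Nutlin the 67 genes held almost no reads. They summed to 38 to 79 counts per library, or 2.14 to 3.16 CPM on TMM-scaled totals (trimmed mean of M values, the scale of all library levels here). HHATL, UNC45B, PYHIN1, FER1L6, SELP, IL12RB1, UMODL1, CELF3 and LRRC38 had 0 counts in all 6 libraries without Nutlin. In all, 35 genes had at most 3 counts there. The rule caps the counts of the vehicle and AG120 libraries together, so low levels in both were fixed by the selection. The vehicle libraries held 161 counts of the set and the AG120 libraries 154, with 31 genes higher in vehicle, 25 higher in AG120 and 11 equal. At this depth a gene with 0 counts in 3 libraries could still have been present at up to 3 counts over them, and these floors cover counting error only.

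**Figure D2:**
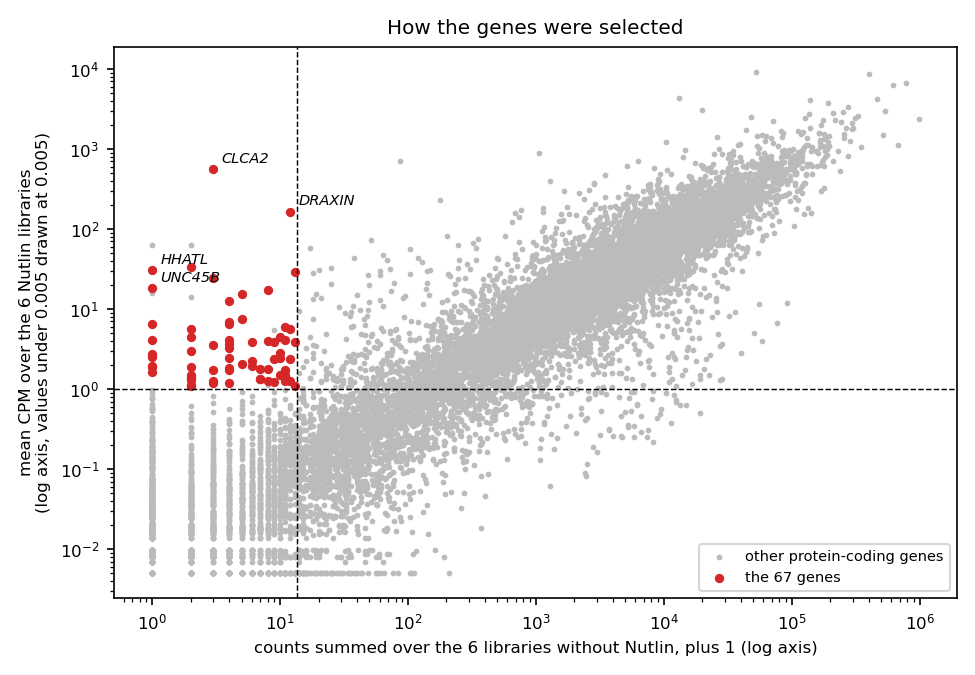
Each point is a protein-coding gene, with counts summed over the 6 libraries without Nutlin plus 1 on the x axis (log) and mean CPM over the 6 Nutlin libraries on the y axis (log). The dashed lines are the limits of 12 counts and 1 CPM, the 67 genes are red, and grey points in the same corner are the 6 genes left out by symbol.

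With Nutlin the set summed to 997, 960 and 1012 CPM in vehicle_Nutlin replicates 1 to 3 and to 1176, 1204 and 1206 CPM in AG120_Nutlin replicates 1 to 3. The AG120_Nutlin sums were all above the vehicle_Nutlin sums. Much of each sum was CLCA2, which gave 48.6% to 66% of the set's counts, the highest share in vehicle_Nutlin replicate 3. The levels were spread widely: 2 genes exceeded 100 CPM, 10 reached 10 CPM, and 28 stayed under 2 CPM. In bulk RNA, a gene that is on in few cells and a gene that is weak in all cells cannot be told apart.

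**Figure D3:**
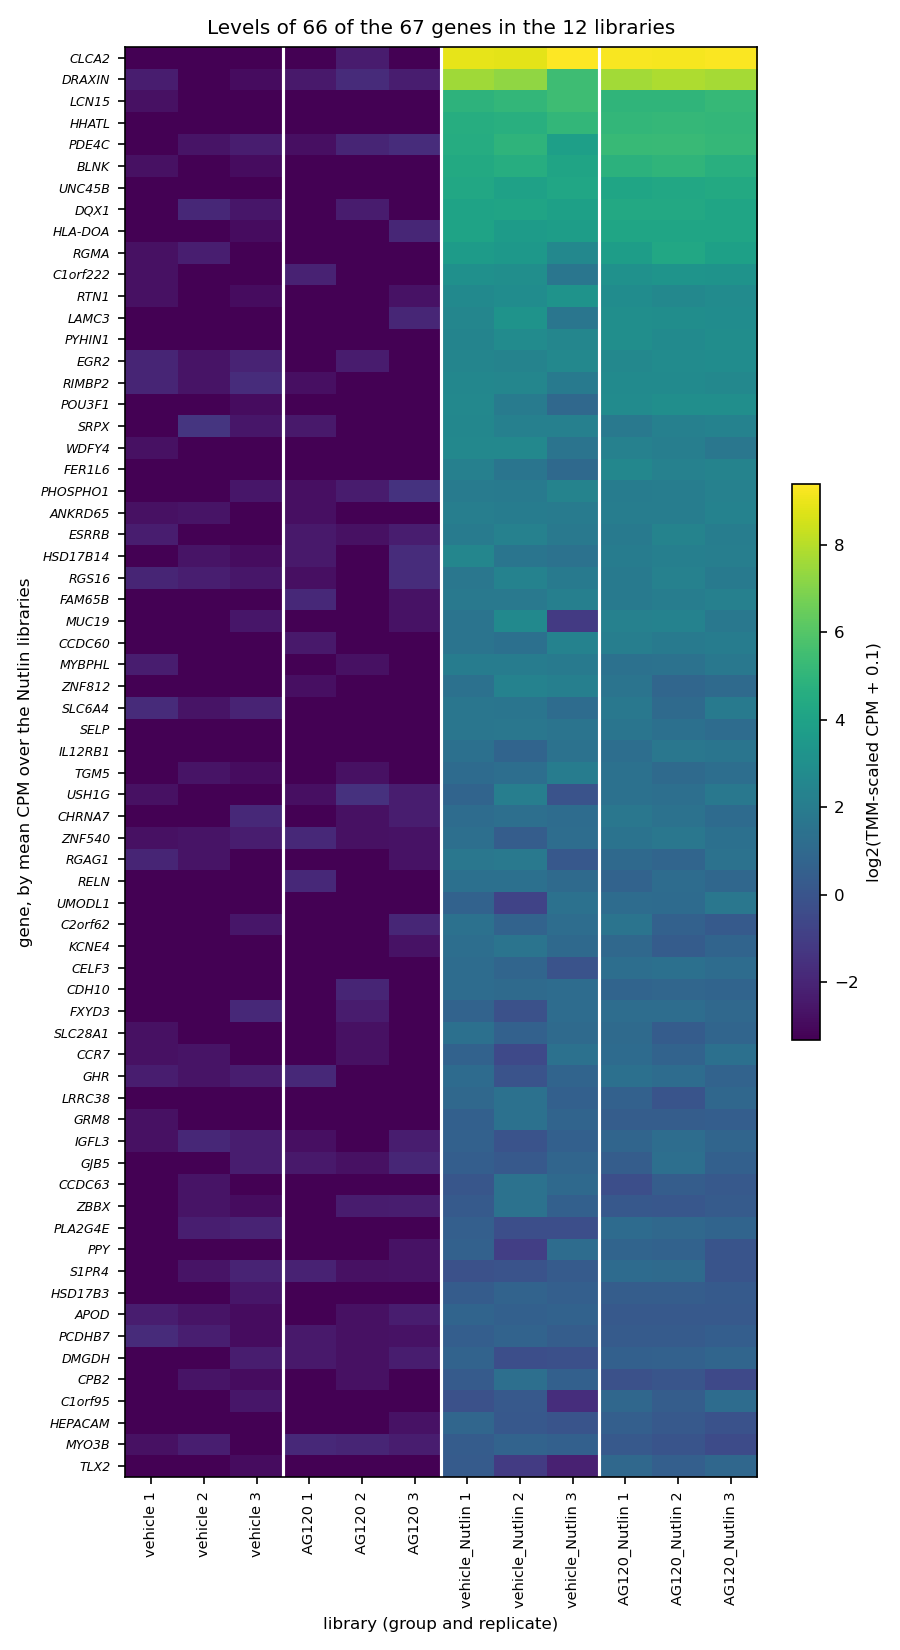
Rows are 66 of the 67 genes ordered by mean CPM over the Nutlin libraries and columns are the 12 libraries; colour is log2(TMM-scaled CPM + 0.1). The 6 columns without Nutlin are darker than those with Nutlin in nearly all cells, except that TLX2 and C1orf95 are also dark in vehicle_Nutlin replicate 3; CLCA2 and DRAXIN are brightest.

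CLCA2 was the most abundant of the channels, transporters and junction proteins, and of the whole set. It belongs to the calcium-activated chloride channel regulator family and is a known p53 target. It lies on chromosome 1 at 86889769 to 86922241 (hg19, as are all gene positions below). It had 0 counts in the 3 vehicle libraries and 2 in the AG120 libraries. It stood at 484, 473 and 668 CPM in vehicle_Nutlin replicates 1 to 3 and at 604, 597 and 635 CPM in AG120_Nutlin replicates 1 to 3. The vehicle_Nutlin library 3 was above every AG120_Nutlin library and the other two were below them all. The vehicle_Nutlin level was 542 ± 110 CPM (mean ± SD, n = 3). With counts pooled over the libraries of a group and a floor of 3 counts over the vehicle group, CLCA2 was at least 12329-fold higher in vehicle_Nutlin than in vehicle. CLCA2 also led per kilobase of exon, at a mean of 128 CPM per kb over both Nutlin groups.

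The other 7 genes of that class were weak, with mean levels of 1.49 to 2.81 CPM over the 6 Nutlin libraries. Such means over both groups, here and below, are on column totals. They were SLC6A4 (the serotonin transporter), CHRNA7 (a nicotinic acetylcholine receptor subunit), KCNE4 and LRRC38 (accessory subunits of potassium channels), FXYD3 (a regulator of the sodium pump), SLC28A1 (a nucleoside transporter) and GJB5 (a connexin). CHRNA7 shares sequence with a fusion gene copy, so its counts are uncertain. CLCA1 and CLCA4, paralogs of CLCA2, had 0 counts without Nutlin and 4 and 1 counts in all with it. These relatives stayed close to 0 in all libraries.

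Secreted, matrix and guidance proteins were led by DRAXIN, a secreted repulsive axon guidance protein (chromosome 1, 11751786 to 11785914). DRAXIN stood at 189, 153 and 43.1 CPM in vehicle_Nutlin replicates 1 to 3 and at 200, 225 and 201 CPM in AG120_Nutlin replicates 1 to 3. Vehicle_Nutlin replicate 3 was far below all other Nutlin libraries, in the same library where CLCA2 was highest. Without Nutlin it had 11 counts over 6 libraries, 8 of them in AG120. Per kilobase of exon DRAXIN ranked second at 23 CPM per kb.

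LCN15, a lipocalin (chromosome 9, 139654086 to 139660707), stood at 29.6, 34.3 and 43.8 CPM in vehicle_Nutlin and at 31.8, 31.8 and 36 CPM in AG120_Nutlin. The groups overlapped. RGMA, a membrane-anchored repulsive guidance molecule (chromosome 15, 93586636 to 93632433), stood at 12.6, 10.7 and 6.06 CPM and at 13.2, 19.3 and 14.8 CPM. All AG120_Nutlin libraries were above all vehicle_Nutlin libraries. Its paralog RGMB was expressed in all 4 groups, at 28.9 ± 0.508 CPM in vehicle and 29.1 ± 3.08 CPM in vehicle_Nutlin (mean ± SD, n = 3). LAMC3, a laminin gamma chain, was at 3.12 to 8.98 CPM over the 6 Nutlin libraries. The remaining members of the class were SRPX, MUC19 (a gel-forming mucin), RELN (reelin), UMODL1, IGFL3, PPY (pancreatic polypeptide), APOD (an apolipoprotein of the lipocalin family) and CPB2 (a plasma carboxypeptidase that slows clot lysis), at mean levels of 1.18 to 4.51 CPM.

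HHATL and UNC45B, which with MYBPHL and MYO3B made up the muscle and myosin genes, had 0 counts without Nutlin. HHATL is a paralog of Hedgehog acyltransferase known from heart and skeletal muscle (chromosome 3, 42734155 to 42744319). It stood at 23.8, 25.4 and 33.6 CPM in vehicle_Nutlin and at 34, 34.9 and 34.4 CPM in AG120_Nutlin. The AG120_Nutlin libraries were close to each other and above all of vehicle_Nutlin. Against the same floor, again on pooled counts, HHATL was at least 626-fold higher in vehicle_Nutlin than in vehicle and at least 721-fold higher in AG120_Nutlin than in AG120.

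UNC45B is the chaperone that folds muscle myosin (chromosome 17, 33474836 to 33516364). It stood at 19.7, 15.6 and 18.5 CPM in vehicle_Nutlin and at 17.7, 19.4 and 21.2 CPM in AG120_Nutlin, and the groups overlapped. It was at least 402-fold and at least 406-fold higher than the floors of vehicle and AG120. UNC45A, its paralog in most tissues, was already at 90.5 ± 1.56 CPM in vehicle and at 82.6 ± 3.79 CPM in vehicle_Nutlin, a log2 change of -0.13 ± 0.10 (SE; adjusted p = 0.31, edgeR quasi-likelihood test with Benjamini-Hochberg adjustment). MYBPHL, a myosin-binding protein, had a mean level of 3.28 CPM and MYO3B, an unconventional myosin, of 1.10 CPM.

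The other muscle genes on a list did not enter the set. The list holds 71 striated muscle genes but not MYBPHL or MYO3B, and was written with earlier results of these data known. Of the 71, 45 had at most 12 counts without Nutlin and only HHATL and UNC45B entered the set. In all, 18 of the 71 had 0 counts in every library, among them MYOD1, MYH1, MYH6, MYH7 and MYH8, and ACTA1 was under 0.1 CPM in all 4 group means. Other muscle genes were expressed without Nutlin: TNNT1 was at 57.4 CPM in vehicle and 9.91 CPM in vehicle_Nutlin, and RYR2 at 2.06 and 7.78 CPM. The summed level of the list was 83 to 93.8 CPM without and 77.1 to 90.2 CPM with Nutlin. Of the latter, HHATL was at 23.8 to 34.9 CPM and UNC45B at 15.6 to 21.2 CPM, both selected for their levels with Nutlin. The rest of the list therefore summed to less with Nutlin than without. Of its 20 tested genes that are not among the 67, 4 were called higher and 10 lower in vehicle_Nutlin against vehicle. Their median log2 change was -1.14. Over all tested genes, 26.8% were called higher and 27.1% lower in that comparison.

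Signalling genes were led by PDE4C, a phosphodiesterase that breaks down cyclic AMP (chromosome 19, 18318771 to 18366229). PDE4C stood at 22.9, 30.7 and 14.4 CPM in vehicle_Nutlin and at 38, 39 and 34.6 CPM in AG120_Nutlin, with no overlap. With 12 counts without Nutlin it was at the limit of the rule. Its paralogs moved in different directions. PDE4A fell from 19.3 ± 2.39 CPM in vehicle to 3.2 ± 1.7 CPM in vehicle_Nutlin, a log2 change of -2.62 ± 0.32 (SE, edgeR). PDE4D rose from 11.5 ± 0.805 to 27.2 ± 5.05 CPM, a log2 change of 1.25 ± 0.15.

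BLNK, the adaptor that links the B cell receptor to downstream enzymes (chromosome 10, 97951458 to 98031344), stood at 21.2, 24.4 and 16.9 CPM in vehicle_Nutlin and at 28.4, 31.7 and 25.7 CPM in AG120_Nutlin. The AG120_Nutlin libraries were all higher. PYHIN1, a relative of the DNA sensor IFI16, had 0 counts without Nutlin and was at 5.29 to 6.95 CPM in vehicle_Nutlin and at 6.7 to 7.65 CPM in AG120_Nutlin. IFI16, its neighbour on chromosome 1, was already at 39.1 ± 1.03 CPM in vehicle and rose to 157 ± 29.1 CPM in vehicle_Nutlin, a log2 change of 2.01 ± 0.12 (SE, edgeR). AIM2 and MNDA, of the same family, had 0 counts in all libraries. RIMBP2 (a presynaptic scaffold), WDFY4, FAM65B and RGS16 (which shortens G protein signals) completed the class at 3.83 to 5.63 CPM.

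Receptors, adhesion and antigen presentation genes were led by HLA-DOA, the alpha chain of a class II modulator that acts on HLA-DM in B cells (chromosome 6, 32971955 to 32977389). HLA-DOA stood at 16.2, 12.5 and 13.5 CPM in vehicle_Nutlin and at 17.3, 17.8 and 17.8 CPM in AG120_Nutlin, with no overlap. Its partner chain HLA-DOB had 6 counts without and 2 with Nutlin. Of the HLA-DM chains, HLA-DMB fell with Nutlin from 2.9 ± 0.272 CPM in vehicle, with a log2 change of -1.38 ± 0.31 (SE, edgeR). HLA-DMA was at 3.25 ± 0.235 CPM in vehicle and 3.21 ± 0.541 CPM in vehicle_Nutlin, a log2 change of -0.02 ± 0.21. In AG-120 cells the log2 changes with Nutlin were -2.07 ± 0.34 for HLA-DMB and -0.95 ± 0.22 for HLA-DMA. The other 9 members were at 1.13 to 2.74 CPM: SELP (P-selectin), IL12RB1, GHR (the growth hormone receptor), CCR7 (a lymph node homing receptor), S1PR4, GRM8 (a glutamate receptor), CDH10, PCDHB7 and HEPACAM.

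BLNK and CCR7 were the only genes of the set among 46 markers of blood cells. Of the 46, 34 had at most 12 counts without Nutlin. Of all protein-coding genes with so few counts, 1.14% reached 1 CPM with Nutlin. The list does not hold HLA-DOA, PYHIN1, WDFY4, SELP, IL12RB1 or S1PR4, which are in the set. Of the 46 markers, 18 had 0 counts in all 12 libraries, CD3E among them. PTPRC had 4 counts without Nutlin and a level of 0 in both Nutlin groups. The summed level of the list was 42.2 to 53.2 CPM without and 60.9 to 81.8 CPM with Nutlin, and BLNK alone was at 16.9 to 31.7 CPM of the latter. No marker of the fibroblast, endothelium, germline or biliary lists entered the set. Only 6, 7, 43 and 2 of their genes had at most 12 counts without Nutlin, and the rule bars the COL symbols of the fibroblast list. Their absence therefore says little about cell type.

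Transcription factors were present at low levels, with means of 1.09 to 5.92 CPM. EGR2, a zinc finger factor of myelinating Schwann cells, was at 5.03 to 5.98 CPM in vehicle_Nutlin and at 5.9 to 7.23 CPM in AG120_Nutlin. EGR1, its relative and an immediate early gene, moved the other way, from 5.38 ± 0.592 to 2.08 ± 0.315 CPM (log2 change -1.37 ± 0.20, SE, edgeR). POU3F1, a POU domain factor, stood at 6.08, 3.77 and 1.84 CPM in vehicle_Nutlin and at 6.87, 7.78 and 7.7 CPM in AG120_Nutlin. TLX2, a homeobox factor, stood at 1.16, 0.359 and 0.128 CPM and at 1.87, 1.33 and 1.82 CPM. Both were lowest in vehicle_Nutlin replicate 3 and did not overlap between the groups. TLX2 entered the set through AG120_Nutlin, so the selection favoured its difference. ESRRB (an orphan nuclear receptor), ZNF540 and ZNF812 (an annotated pseudogene in the current RefSeq) also belonged to this class.

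Enzymes were led by DQX1, a putative RNA helicase (chromosome 2, 74745258 to 74753463), at 16.3, 17.2 and 15 CPM in vehicle_Nutlin and 20.4, 20.1 and 17.4 CPM in AG120_Nutlin. The 3 AG120_Nutlin libraries were all higher. PHOSPHO1 (a phosphatase of bone mineralization), HSD17B14 and HSD17B3 (steroid dehydrogenases), TGM5 (an epidermal transglutaminase), PLA2G4E (a phospholipase) and DMGDH (a mitochondrial choline-pathway enzyme) followed at 1.22 to 4.11 CPM. Of 78 epidermal differentiation genes on a list that were in the table, 56 had at most 12 counts without Nutlin, and CLCA2 and TGM5 entered the set. Of 80 neuronal genes on a list, 45 had at most 12 counts, and DRAXIN, RGMA and CELF3 (an RNA-binding splicing factor) entered it. The neuronal list does not hold RELN, RIMBP2, SLC6A4, CHRNA7 or GRM8, which are in the set.

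The last 12 genes fit none of these classes. C1orf222, a gene of cilia and flagella now named CFAP74, stood at 8.15, 7.6 and 3.03 CPM in vehicle_Nutlin and at 8.55, 9.51 and 8.99 CPM in AG120_Nutlin. RTN1, a reticulon of the endoplasmic reticulum, stood at 6.51, 7.06 and 9.18 CPM and at 7.23, 6.06 and 6.82 CPM. The AG120_Nutlin libraries were all higher for C1orf222 and overlapped with vehicle_Nutlin for RTN1. The rest were FER1L6, ANKRD65, CCDC60, USH1G (a scaffold of inner ear hair cells), RGAG1, C2orf62, CELF3, CCDC63, ZBBX and C1orf95, at 1.18 to 4.11 CPM.

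**Figure D4:**
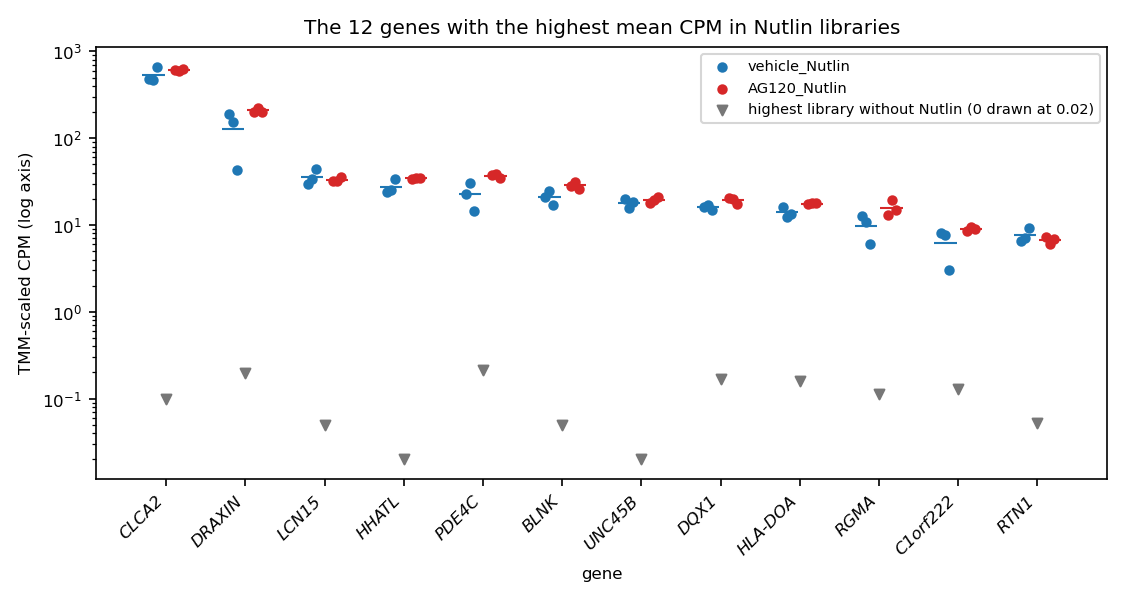
TMM-scaled CPM (y axis, log) of the 12 genes with the highest means in the Nutlin libraries. Points are the 3 libraries of vehicle_Nutlin (blue) and AG120_Nutlin (red), bars their means and grey triangles the highest library without Nutlin; the blue points of DRAXIN, PDE4C and C1orf222 spread most.

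Per kilobase of exon (GENCODE v29 models, GRCh38), which allows levels of different genes to be compared, the order was CLCA2, DRAXIN, LCN15 at 12 CPM per kb, HHATL at 10.7, BLNK at 6.76, DQX1 at 6.03 and PDE4C at 4.57 CPM per kb. RGMA, among the 10 highest by CPM, ranked 25 of 67 per kilobase, with exons of 13.2 kb. The exons of the set were shorter than those of tested genes, with a median of 3.77 kb beside 4.93 kb. The levels in both Nutlin groups followed each other across the 67 genes (Pearson 0.957, Spearman 0.881 on log2 levels, n = 67; the genes share the libraries).

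Replicates of vehicle_Nutlin varied more for these genes than those of AG120_Nutlin. The median coefficient of variation was 26.6% in vehicle_Nutlin and 11.2% in AG120_Nutlin. It was 18% and 5.5% over 13165 tested genes from 1 CPM to the highest level of the set. Those genes were not matched in level. The 67 genes lie mostly low in that range, with 28 under 2 CPM and 10 at 10 CPM or more, where counting error is larger. Its part in this and the next comparisons with the 13165 genes was not tested. In vehicle_Nutlin replicate 3, 11 of the 67 genes lay over 2-fold below and 3 over 2-fold above the mean of the other libraries of the group, 20.9% in all, beside 12% of the 13165 genes. The shares were 14.9% and 4.87% in replicate 2 and 5.97% and 2.32% in replicate 1. The deviation of replicate 3 went down with exon length: Spearman was -0.36 over the 67 genes and -0.31 over 13510 tested genes. In replicates 1 and 2 it was 0.19 and 0.25 over the 67 genes. The part of these library differences in the results below was not tested beyond leaving libraries out.

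The rule took the mean over both Nutlin groups and not the difference between them. That difference, AG120_Nutlin against vehicle_Nutlin, was therefore the comparison tested, and it asks whether AG-120 pretreatment changed the levels reached with Nutlin. For genes near the limit it is not free of the selection: TLX2, C1orf95, PLA2G4E, S1PR4, CPB2 and MYO3B, 6 in all, had a mean under 1 CPM in 1 Nutlin group and entered the set through the other. None of the 67 genes was called. The edgeR quasi-likelihood test on all 15691 genes that passed the filter (the 67 all passed), with Benjamini-Hochberg adjustment over them, gave a smallest adjusted p of 0.127, for PDE4C. Over all tested genes, 68 were called higher (0.433%) and 303 lower (1.93%). At an unadjusted p under 0.05, 7 of the 67 were higher and 2 lower, where 7.96% of all tested genes were higher and 11.6% lower. DESeq2 also called none of the 67.

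PDE4C was higher in AG120_Nutlin by 0.72 ± 0.24 on the log2 scale (SE, n = 3 against 3; edgeR adjusted p = 0.127). DRAXIN was at 0.70 ± 0.36 (adjusted p = 0.305) and HHATL at 0.32 ± 0.15 (adjusted p = 0.284). CLCA2 was at 0.18 ± 0.17 (adjusted p = 0.577), and UNC45B at 0.11 ± 0.15 (adjusted p = 0.688). Thus the differences of these genes between the Nutlin groups did not pass the threshold, which does not show that the levels were equal. The highest and lowest estimates were 1.62 ± 0.62 for TLX2 and -1.08 ± 0.44 for CPB2, which both entered the set through 1 group, so the selection favoured such differences. CPB2 was at 1.66 ± 0.651 CPM in vehicle_Nutlin and 0.769 ± 0.175 CPM in AG120_Nutlin. The others with an unadjusted p under 0.05 were POU3F1 at 0.94, C1orf95 at 1.34, PLA2G4E at 0.99, RGMA at 0.69, BLNK at 0.46 and ZNF812 at -0.83.

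Most estimates were positive. The log2 change was above 0 in 42 of the 67 genes (62.7%) and in 49.4% of all tested genes, with medians of 0.18 and -0.01. The 67 genes share the same libraries and do not vary independently, so the tally does not measure a spread. Neither the share nor the median was tested. All AG120_Nutlin libraries were above all vehicle_Nutlin libraries in 17 genes and below them in 7, while the libraries overlapped in 43. Over all tested genes these shares were 14.2% above and 14.1% below. TLX2, C1orf95 and PLA2G4E are among the 17, and CPB2 and MYO3B among the 7. These genes, and S1PR4 among the 42, entered the set through the Nutlin group where they are higher. The selection therefore favoured their differences, and the tallies were not repeated without them. By class, the estimate was positive in 6 of 7 transcription factors, 6 of 7 signalling genes, 5 of 7 enzymes, 5 of 8 channel, transporter and junction genes, 7 of 12 genes of other roles, 6 of 12 secreted proteins, 5 of 10 receptor genes and 2 of 4 muscle genes. The classes were drawn by role after the values were seen, and differences between them were not tested.

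**Figure D5:**
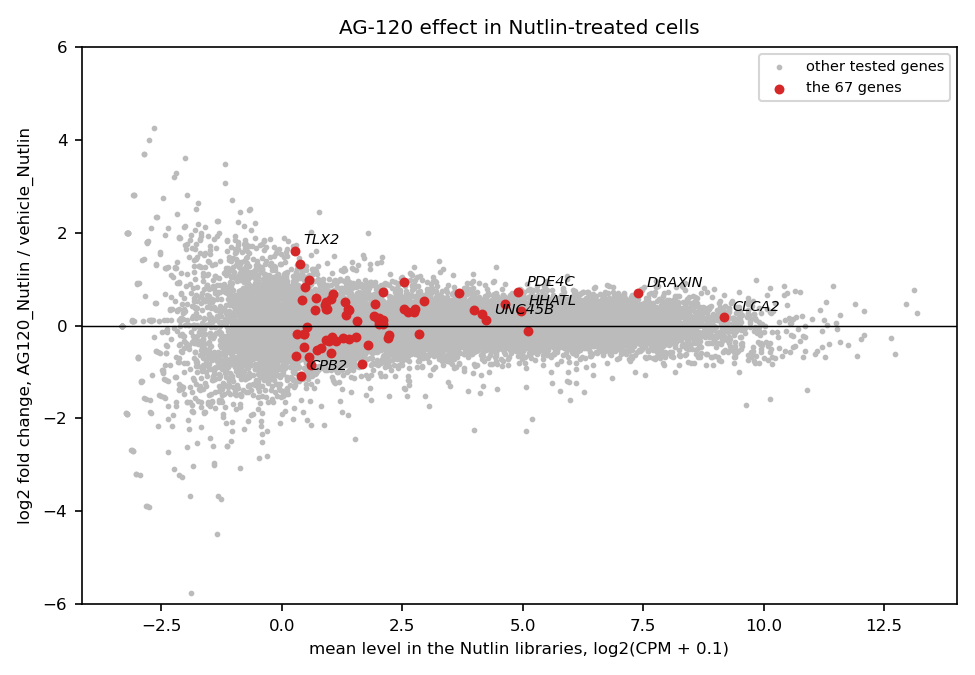
Log2 fold change of AG120_Nutlin over vehicle_Nutlin (y axis) against the mean level in the Nutlin libraries (x axis, log2 of CPM + 0.1) for all 15691 tested genes, with the 67 genes in red. The red points lie within -1.08 and 1.62, with 42 above 0 and none called.

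The call of some genes turned on single libraries. Without vehicle_Nutlin replicate 3, CLCA2 (0.35, adjusted p = 0.0464) and HHATL (0.49, adjusted p = 0.0486) were called higher in AG120_Nutlin. Without vehicle_Nutlin replicate 2 it was PDE4C (1.00, edgeR adjusted p = 0.0378). Without vehicle_Nutlin replicate 1 it was POU3F1 (1.43, edgeR adjusted p = 0.0379) and TLX2 (2.82, edgeR adjusted p = 0.0297). TLX2 entered the set through AG120_Nutlin, so the selection favoured its difference. Its vehicle_Nutlin libraries left in that fit were at 0.359 and 0.128 CPM. DRAXIN fell from 0.70 to 0.29 without replicate 3 and was not called (adjusted p = 0.139). With vehicle_Nutlin replicates 2 and 3 and AG120 replicate 1 all left out, CLCA2 (0.35), HHATL (0.55) and PDE4C (0.71) were called higher, where 3.8% of tested genes were. That fit has 1 vehicle_Nutlin library, so its spread was borrowed from the remaining groups.

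The rest of the p53 pathway was used as a frame, from 5 lists of p53 genes written with earlier results of these data known. Of 134 tested genes on them that are not among the 67, 115 were called higher and 6 lower with Nutlin in vehicle cells. Over all tested genes, 26.8% were called higher and 27.1% lower in that comparison. The median log2 change of the 134 was 1.95. In AG-120 cells 113 were higher and 9 lower, with a median of 1.91 (27% of all tested genes were called higher and 28.8% lower in that comparison). The responses share no libraries, and their difference was not tested here. CLCA2 and DRAXIN were the only genes of the set on those lists. In AG120_Nutlin against vehicle_Nutlin, 1 of the 134 was higher and 4 lower, with a median of 0.12. Over all tested genes, 0.433% were called higher and 1.93% lower.

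Paralogs of the leading genes were counted beside all tested genes. Of 43 relatives listed, 29 were tested. In vehicle cells 8 were called higher and 10 lower with Nutlin, where 26.8% and 27.1% of all tested genes were. In AG-120 cells 10 were higher and 13 lower, where 27% and 28.8% of all tested genes were. HHAT, the Hedgehog acyltransferase from which HHATL takes its name, was 1 of 4 that rose at least 4-fold in vehicle cells, from 9.32 ± 0.757 to 95.5 ± 13.3 CPM (log2 change 3.36 ± 0.14, SE, edgeR). POU3F2, a relative of POU3F1, rose in AG-120 cells from 0.29 ± 0.0683 to 2.51 ± 0.45 CPM (log2 change 3.10 ± 0.61) and was at 0.93 ± 0.53 in vehicle cells, where it was not called (adjusted p = 0.163).

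Genes next to the 67 were also compared. A neighbouring protein-coding gene within 50 kb on hg19 was at least 2-fold higher with Nutlin in both vehicle and AG-120 cells (adjusted p at most 0.05, edgeR) for 13 of the 67 (19.4%), beside 9.82% of 12952 tested protein-coding genes. Of all tested genes, 9.9% met that rule themselves. The 13 include DQX1 and TLX2 as neighbours of each other, both selected for their levels with Nutlin, and HHATL with CCDC13, which overlaps it. Without neighbours that overlap or belong to the set, the share was 10 of the 67 (14.9%), beside 7.31% of tested protein-coding genes. DQX1 and TLX2, 0.983 kb apart, were the only neighbours that were both in the set. GABRD, 15.5 kb from C1orf222, had a log2 change of 8.83 in vehicle cells. IGFL2, 18.4 kb from IGFL3, had 4.45, and PLA2G4D, next to PLA2G4E, had 5.30.

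Overlap limits the counts of a few genes, since the sources used here do not state whether counting used strand. An overlapping entry at 50% or more of the gene's own level was found for 7 of the 67: HHATL, BLNK, FAM65B, IL12RB1, ZNF540, RGAG1 and GJB5. HHATL overlaps CCDC13, at 28.7 CPM beside its own 31 CPM over the Nutlin libraries, and the antisense entry HHATL-AS1 at 8.97 CPM. Reads of HHATL and of these partners cannot be told apart on a table without strand.

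The limits of the rule passed through a continuous range. At 12 counts without Nutlin stood MYO3B, RGS16 and PDE4C, and just outside were C17orf82 and FAM13C with 13 counts and NTSR1 with 14, of which FAM13C reached 9.51 CPM with Nutlin. At the other limit TLX2 (1.09 CPM), MYO3B (1.10 CPM) and HEPACAM (1.13 CPM) were just inside. TTR (0.975 CPM), ANKUB1 (0.973 CPM) and KCNJ15 (0.913 CPM) were just outside.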

How the data were processed

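Poly(A) RNA of 12 RBE libraries was analysed. The authors deposited raw counts per gene symbol, not normalized. Per the submitters' processing notes, the build was hg19 and the tools were STAR, HTSeq, DESeq2 and Partek, with no statement of which one counted the reads. The 67 genes and the lists were chosen with earlier results of these data known. Counts were fitted in R 4.3.3 with edgeR 4.0.16 (filterByExpr, TMM, glmQLFit with 1 term per group over all 12 libraries, glmQLFTest), Benjamini-Hochberg adjustment and a threshold of 0.05. Levels are TMM-scaled CPM and the selection used CPM on column totals. The test was checked on simulated counts. Alternatives were DESeq2 1.42.0, other scalings and filters, a replicate block, fewer groups and left-out libraries. Named genes are CLCA2, HHATL and UNC45B, the 12 highest means, list members, called genes, the genes nearest each limit, those with paired p53 cores and adjacent members; others were named after their values were seen, by role. The deposited stop was taken as 1 base past the gene's end, from mitochondrial reading frames. The results of some genes are not reported here. Same-numbered libraries of different groups did not deviate together (correlations -0.22 to 0.12, 1 of 18 over 0.1), so numbers were not taken as pairs.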

Additional observations from a re-analysis of the deposited data

How the results depend on the processing

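DESeq2, DESeq2 size factors, library totals, the replicate block, a minimum of 1 CPM in 3 libraries and a fit of only the 2 groups called 0 of the 67 genes. With no filter 4 were higher (DRAXIN, PDE4C, POU3F1, RGMA), and without vehicle_Nutlin replicates 2 and 3 and AG120 replicate 1 together 3 were. Leaving out each library gave 0 to 2. None was called lower under any alternative run. UNC45B turned from 0.11 to -0.0123 without those 3 libraries.

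Over all genes, those called higher numbered 68, and 256 with DESeq2, 594 with no filter, 33 with the replicate block, 0 with only 2 groups, 629 without the 3 libraries and 5 to 418 with each library left out. Those called lower numbered 303, and 621, 678, 178, 15, 745 and 56 to 619 in the same order. The cause was not tested.

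The median of the 67 genes stayed between 0.14 and 0.21. The called p53 genes stayed between 111 and 120. The rule gave 9 genes at 0 counts, 44 at 6, 101 at 24, 102 at 0.5 CPM and 39 at 2 CPM. Genes near 1 CPM rest on few counts, which limits their precision.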

Other observations

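The 6 protein-coding genes left out by symbol were LCE1B, LCE1C, LCE1E and LCE1F (late cornified envelope proteins of the epidermis), ABCG4 and COL9A2. LCE1B had 1 count without Nutlin and a mean of 63.4 CPM with it, and LCE1C had 0 counts and 62.4 CPM. LCE1B stood at 61.9, 63.8 and 64 CPM in vehicle_Nutlin and at 69.7, 65.6 and 63 CPM in AG120_Nutlin.

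The same limits held for 32 entries that are not protein-coding: 14 lincRNAs, 8 antisense entries, 9 pseudogenes and 1 other. The most abundant were RP5-884C9.2 at 13.1 CPM, RP4-756G23.5 at 9.06 CPM, HHATL-AS1 at 8.79 CPM and LBX1-AS1 at 8.67 CPM on column totals.

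The mirrored rule, at most 12 counts with Nutlin and at least 1 CPM without, held for 23 of 6524 protein-coding genes (0.353%), beside 1.14% in the other direction. They included E2F2, an activator of S phase genes, SPC25 of the kinetochore, PIF1, a DNA helicase, MYB, TERT, the catalytic subunit of telomerase, and CA9, a hypoxia-induced carbonic anhydrase. E2F2 had 2421 and SPC25 2482 counts over the 6 libraries without Nutlin.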
